A study of Mus musculus with 18 samples.

Results

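Glycolysis breaks glucose down to pyruvate, and the pentose phosphate pathway branches off it to make NADPH and ribose. The 36 genes followed here encode the glucose importers, the enzymes of both pathways, the PFKFB enzymes that tune phosphofructokinase, the lactate and pyruvate handling enzymes and transporters, and the pyruvate dehydrogenase kinases. They were taken by gene symbol from the array's annotation, using probe sets that name a single gene and, of several, the probe set with the highest mean. Of the 36 genes, 32 had such a probe set, among 18194 genes on the array, and 31 passed the filter on low values, among 12720 genes tested. Eno2, the neuronal enolase, had a mean log2 value of 2.31 over the 18 arrays and was too dim to test. Gpi1, Eno1, Pfkfb1 and G6pdx were not analysed here.

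The cells were G1E-ER4, a mouse erythroid progenitor line derived from cells with a disrupted Gata1 gene. A GATA1–estrogen receptor fusion stands in for the missing transcription factor and becomes active when estradiol is added. The line is a single one, so its response may not hold for other erythroid cells. All groups carry both alterations. RNA was read on 3 Affymetrix arrays at each of 6 times: before estradiol (0 h) and after 3, 7, 14, 21 and 30 h in 20 nM estradiol. The arrays of a time are called biological replicates in the labels. Whether each had its own culture is not stated, so the spread that the p-values measure may be technical. Untreated cells grown for matching hours were not analysed here, and the effects of estradiol, of GATA1 activity and of hours in culture cannot be told apart. In these bulk samples, fewer cells of a type and less RNA per cell cannot be told apart either.

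A mature red cell has no mitochondria and draws its ATP from glycolysis, while the pentose phosphate pathway supplies the NADPH that keeps its glutathione reduced. Many steps have several isozymes, each from its own gene, that differ in regulation and in the tissues that use them. Hexokinase 1, the R form of pyruvate kinase encoded by Pklr, and bisphosphoglycerate mutase, which makes the 2,3-bisphosphoglycerate that lowers the oxygen affinity of haemoglobin, are known as red cell enzymes.

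Promoter windows of 300 bases, from 250 before to 50 after an annotated transcript start, were searched on both strands for the letters of factors known in erythroid cells and in glycolysis control (RefSeq sequences, build GRCm38.p6). At least 1 window was found for 35 of the 36 genes, 56 windows in all, and none for Slc2a3. A GATA word (the letters AGATAA, the letters AGATAG, the letters TGATAA or the letters TGATAG), the letters GATA factors bind, was found in 16 of the 56 windows (28.6%), against 29.8% of all 32851 windows. The CACC box CCACACCC, bound by KLF factors, was found in 7.14% of the windows of these genes, against 3.56% of all windows. The E-box CACGTG, which MYC and related factors bind, was found in 10.7% of the windows of these genes, against 7.15% of all windows. The word ACGTG or the word GCGTG, the core that hypoxia-inducible factors bind, were found in 71.4%, against 43.8% of all windows, with ACGTG lying inside every CACGTG. Windows of 1 gene can overlap, so the shares are descriptions and not counts of independent sequences. The sequences that follow, 5′ to 3′ on the strand of the gene, are windows of Pfkm and Pfkfb4, which rose within 3 h, of Pklr, the red cell pyruvate kinase, and of Ldha, which fell late. Capitals mark GATA words (or their reverse complements) in Pfkm, Pfkfb4 and Pklr, and E-boxes and hypoxia words (or their reverse complements) in Ldha. Other words are left in lower case, among them an E-box in the Pfkm window and a hypoxia word in the Pfkfb4 window. The letters are matches in these windows, and binding of any factor was not measured.
Pfkm, chr15:98092339-98092638, plus strand, the most upstream of 4 windows: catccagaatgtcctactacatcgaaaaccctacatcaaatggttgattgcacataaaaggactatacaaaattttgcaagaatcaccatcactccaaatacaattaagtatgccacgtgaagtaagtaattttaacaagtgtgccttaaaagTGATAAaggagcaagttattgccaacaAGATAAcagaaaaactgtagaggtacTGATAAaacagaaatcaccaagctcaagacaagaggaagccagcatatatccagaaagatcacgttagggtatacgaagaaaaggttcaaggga
Pfkfb4, chr9:108991652-108991951, plus strand: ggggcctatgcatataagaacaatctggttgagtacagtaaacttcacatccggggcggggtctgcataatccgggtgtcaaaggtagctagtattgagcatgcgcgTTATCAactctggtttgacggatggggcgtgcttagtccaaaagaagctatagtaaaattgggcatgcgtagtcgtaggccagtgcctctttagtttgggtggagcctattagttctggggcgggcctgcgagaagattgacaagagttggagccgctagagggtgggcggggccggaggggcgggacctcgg
Pklr, chr3:89135892-89136191, plus strand, the more upstream of its windows: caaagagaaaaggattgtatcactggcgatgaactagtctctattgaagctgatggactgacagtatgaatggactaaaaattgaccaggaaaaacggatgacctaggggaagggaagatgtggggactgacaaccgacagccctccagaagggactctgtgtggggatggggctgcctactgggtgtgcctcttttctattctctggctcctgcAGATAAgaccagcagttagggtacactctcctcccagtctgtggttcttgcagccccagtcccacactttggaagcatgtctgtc
Ldha, chr7:46845554-46845853, plus strand, the more upstream of its windows: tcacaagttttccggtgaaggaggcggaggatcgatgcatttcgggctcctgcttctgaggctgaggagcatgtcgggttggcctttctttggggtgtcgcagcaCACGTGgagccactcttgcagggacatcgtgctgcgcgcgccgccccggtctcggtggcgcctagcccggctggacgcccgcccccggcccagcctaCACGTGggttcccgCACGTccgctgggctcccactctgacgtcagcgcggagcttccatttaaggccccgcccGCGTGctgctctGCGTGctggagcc
The Pfkm window held 3 GATA words, the Pfkfb4 and Pklr windows 1 each, and the Ldha window 0 GATA words and 2 E-boxes. These are the windows of each gene that hold the most marked words: the other Pfkm windows held 2, 1 and 0 GATA words, the other Pklr window 0, and the other Ldha window 0 E-boxes and 2 hypoxia words. GATA words were not limited to genes that rose. The word of the Pklr window began at position -35 from the transcript start, and Pkm, the pyruvate kinase gene that fell, had a GATA word at -32. Slc16a1, which also fell, had a GATA word at -240, and Gapdh, not called at 30 h, had a GATA word at -72. E-boxes were likewise not limited to genes that fell. Windows of Pfkm, Pdk2, Pfkfb2 and Pfkfb3, all higher at 30 h, held them, as did windows of Ldha and Slc16a1.

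The labelled cell type was checked against marker lists. The summed level of the 6 measured erythroid markers ranged from 14.16 to 14.19 at 30 h, against 12.24 to 12.33 at 0 h, with 5 of the 6 above a log2 value of 5 at each time. Alas2 (6.49) and Slc4a1 (6.08) had the largest log2 changes at 30 h, with 0.87 for Gata1 and 0.80 for Klf1, and Epor (0.12) was not called. At 3 h, Alas2 and Klf1 were higher and Slc4a1, Epor and Gata1 lower. The summed level of 8 mast cell and basophil markers ranged from 6.51 to 6.70 at 30 h, against 8.76 to 9.06 at 0 h, with 0 and 4 of them above 5. It had reached 7.11 to 7.13 at 7 h and 6.45 to 6.62 at 14 h. Of the 7 of these markers tested, 4 were lower at 30 h, with the largest log2 change for Cpa3 (-5.42). Tpsb2 was higher (0.45, limma adjusted p = 0.0108), and Cma1 (0.14) and Mcpt8 (0.04) were not called. Summed levels of 8 megakaryocyte markers ranged from 8.59 to 8.74 at 30 h, against 8.90 to 9.01 at 0 h. That sum joins opposite log2 changes at 30 h: Gp5 (-3.99) and Pf4 (-2.34) fell, while Itgb3 (2.05) and Gp9 (0.66) rose. Granulocyte and macrophage markers ranged from 6.48 to 6.65, against 6.44 to 6.85, and lymphoid markers from 6.23 to 6.4, against 6.10 to 6.25, with 0 of 6 lymphoid markers above 5 at any time. The part of these shifts in the changes of the glycolytic genes was not tested.

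The members moved in both directions. They were chosen with earlier results of these data known, so a share of calls above that of all genes is not independent evidence. At 3 h, 6 members were higher than at 0 h (19.4% of 31), where 11.2% of all genes were called higher by limma at an adjusted p under 0.05. They were the glucose importers Slc2a1 and Slc2a3, both hexokinases, Pfkm and Pfkfb4. At 3 h, 3 members were lower (9.68%, against 14.7% of all genes), namely Pdk2, Pfkfb2 and Pdha1. No member from Gapdh to pyruvate kinase was called at 3 h or 7 h on the probe sets used (0 of 7), but dimmer probe sets of these genes were called with every probe set fitted on its own. The other probe sets of Pgk1 were higher by 0.54 and 0.33 at 3 h (limma adjusted p = 0.01 and 0.0266) and by 0.48 and 0.30 at 7 h (adjusted p = 0.0158 and 0.0369), and a dimmer probe set of Pklr was higher by 0.27 at 7 h (adjusted p = 0.00292). At 7 h, 11 members were higher (35.5%, against 15.3% of all genes) and only Pdha1 was lower (3.23%, against 16.3%). At 14 h, 14 members were higher than at 0 h (45.2%, against 22.2%) and 5 were lower (16.1%, against 22.7%). At 21 h the counts were 14 higher (45.2%, against 31.4%) and 11 lower (35.5%, against 28.6%). At 30 h, 16 members were higher (51.6%, against 36.6%) and 10 were lower (32.3%, against 33.0%), so the share of lower members was near that of all genes. Of the called members, 6 were at least 2-fold higher and 4 at least 2-fold lower. The share of all genes past 2-fold was not computed, so these counts cannot be set against it. The median log2 change at 30 h was 0.22 over the members and 0.09 over all genes tested.

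Between neighbouring times, 9 members were higher at 7 h than at 3 h (29.0%, against 9.80% of all genes), and 0 were called lower (against 5.14%). Under 2 of the alternative settings, 1 was lower, and leaving out arrays gave 0 to 1 lower. Comparing 14 h with 7 h, 6 members were higher (19.4%, against 11.5%) and 8 were lower (25.8%, against 10.8%). Comparing 21 h with 14 h, 4 were higher (12.9%, against 15.7%) and 15 were lower (48.4%, against 17.5%). The 15 lower members at this step held 7 of the 10 members from glucose import to triose phosphate isomerase. Comparing 30 h with 21 h, 8 were higher (25.8%, against 18%) and 9 were lower (29.0%, against 22.5%). Of the 10 members from glucose import to triose phosphate isomerase, 6 were higher and 0 lower at 7 h (median log2 change 0.73), and 5 were higher and 2 lower at 30 h (median 0.16). Of the 7 from Gapdh to pyruvate kinase, 2 were higher and 3 lower at 30 h (median -0.07). The mean was highest at 30 h for 12 of the 31 members, at 7 h for 7, at 3 h for 6, at 21 h for 3, at 14 h for 2, and at 0 h for Pdha1 alone, although neighbouring times often differed by less than their spread. Every called member had arrays that did not overlap between the times compared, except Aldoc at 21 h. The call and the lack of overlap rest on the same arrays, so this is not separate support. The share among all called genes was not computed.

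The deposited arrays have been brought to a common scale, so each change is relative to the middle of all genes. When arrays were instead shifted so that their bacterial and phage hybridisation controls had equal means, this added 0.097, -0.048, 0.23, 0.013 and 0.203 to every log2 change at 3, 7, 14, 21 and 30 h against 0 h. With that scale 4 members were higher than at 0 h (against 3.64% of all genes on the same scale) and 1 was lower (against 2.24%) at 3 h. At 7 h, 8 were higher (against 4.31%) and 0 lower (against 5.13%), and at 14 h, 12 were higher (against 21.9%) and 0 lower (against 6.38%). At 21 h, 11 were higher (against 18.9%) and 8 lower (against 18.3%), and at 30 h, 15 were higher (against 39.3%) and 9 lower (against 20.3%). The member counts at 30 h were thus close to those without the shift, while the 5 calls of lower members at 14 h were all lost. The share of all genes called lower at 30 h was 20.3% on this scale, against 33.0% without the shift. The share of lower members at 30 h, near that of all genes without the shift, thus lay above it on this scale. Between neighbouring times the same scale left 1 higher (against 1.0% of all genes) and 0 lower (against 1.36%) at 7 h compared with 3 h, and 6 higher (against 10.3%) and 0 lower (against 1.24%) at 14 h compared with 7 h. It left 1 higher (against 0.959%) and 12 lower (against 13.0%) at 21 h compared with 14 h, and 6 higher (against 13.2%) and 3 lower (against 5.92%) at 30 h compared with 21 h.

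**Figure D1:**
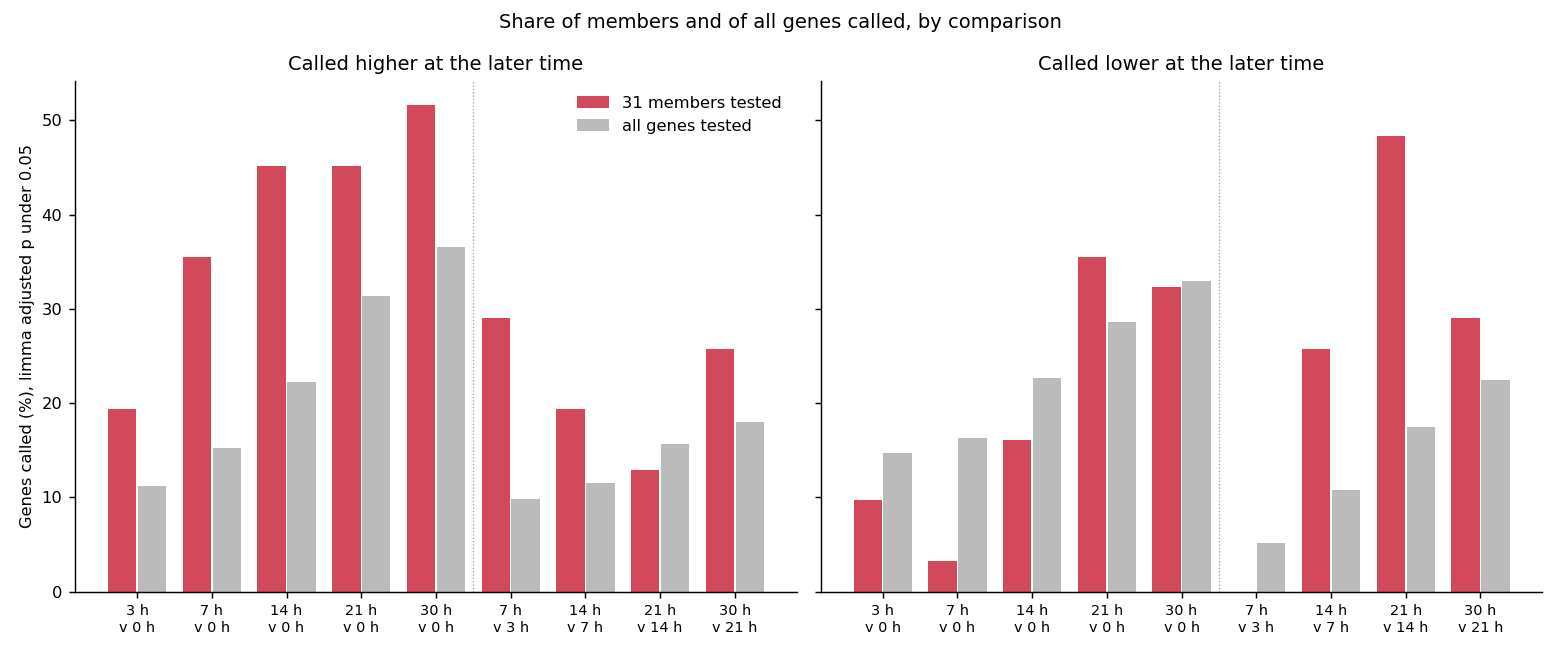
Bars give the percentage of the 31 members tested (red) and of all 12720 genes tested (grey) called higher (left) or lower (right) at the later of the times compared, by limma at an adjusted p under 0.05. The share of members called higher lay above that of all genes in every comparison with 0 h. At 21 h, 48.4% of members were lower than at 14 h, against 17.5% of all genes. The members were chosen with earlier results of these data known.

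The glucose importers rose early. Slc2a3 (GLUT3, a high-affinity importer) lay at 6.94, 6.78 and 6.71 on the log2 scale at 0 h, at 7.64, 7.65 and 7.67 at 3 h, and at 8.03, 8.19 and 8.17 at 7 h. It then lay at 7.73, 7.85 and 7.91 at 14 h, 7.54, 7.58 and 7.39 at 21 h, and 7.72, 7.88 and 7.80 at 30 h. All arrays in estradiol lay above all 0 h arrays, with the highest values at 7 h. At 7 h it was 2.5-fold higher (log2 change 1.32, SE 0.0762, limma adjusted p = 2.57e-09). At 30 h the log2 change was 0.99. A further bright probe set of Slc2a3, with an _s_at name, changed by 1.34 at 30 h. The other probe sets, at means of 2.39 and 2.52, were too dim to test and changed by 0.23 and 0.09. The Slc2a3 probe set used has an _x_at name, as have those of Aldoa, Pgd and Tkt. Names in _x_at or _s_at mark probes that may also match other transcripts, so the rise of Slc2a3 rests on such probe sets alone.

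Slc2a1 (GLUT1, the importer most widely used by dividing cells) had a transient course. Its means were 10.88, 11.18, 11.56, 11.54, 11.20 and 10.85 at 0, 3, 7, 14, 21 and 30 h, with SDs of 0.042 to 0.085 (n = 3 each). It was 1.6-fold higher at 7 h (log2 change 0.68, limma adjusted p = 2.91e-07), and 21 h lay below 14 h by 0.34. At 30 h the arrays lay at 10.81, 10.78 and 10.94, against 10.92, 10.87 and 10.84 at 0 h, and overlapped (log2 change -0.03, adjusted p = 0.651). Its other probe sets changed by 0.86 and 0.60 at 7 h and by -0.03 and 0.02 at 30 h.

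The hexokinases, which trap glucose in the cell as glucose 6-phosphate, rose together at first and then parted. Hk1 lay at 10.42, 10.38 and 10.49 at 0 h, 10.70, 10.96 and 10.68 at 3 h, 11.23, 11.13 and 11.24 at 7 h, 11.10, 11.37 and 11.29 at 14 h, 11.77, 11.63 and 11.49 at 21 h, and 11.87, 11.72 and 11.81 at 30 h. Hk2, the inducible form of muscle and of dividing cells, lay at 9.21, 9.11 and 8.99 at 0 h, 10.03, 10.02 and 9.93 at 3 h, 9.67, 10.03 and 9.93 at 7 h, 9.16, 9.22 and 9.01 at 14 h, 7.37, 7.50 and 7.41 at 21 h, and 6.64, 6.47 and 6.66 at 30 h. Both genes were above all 0 h arrays at 3 h and at 7 h. Hk1 stayed above them at every later time, whereas Hk2 overlapped them at 14 h and lay below them all at 21 h and 30 h. At 3 h, Hk2 was 1.85-fold higher (log2 change 0.89, SE 0.0915, limma adjusted p = 3.27e-06). At 30 h, Hk2 was 5.70-fold lower (log2 change -2.51, adjusted p = 7.80e-13) and Hk1 was 2.58-fold higher (log2 change 1.37, SE 0.0897, adjusted p = 9.77e-10). A dimmer probe set of Hk1 changed by 1.64. The 3 h call of Hk1 (0.35, adjusted p = 0.00883) was lost on the hybridisation control scale (adjusted p = 0.206) and without the 3 h replicate 2 (adjusted p = 0.0545).

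Phosphofructokinase, the committing step of glycolysis, is built from liver, muscle and platelet type subunits encoded by Pfkl, Pfkm and Pfkp, and each subunit gene had its own time course. Pfkm lay at 8.43, 8.21 and 8.33 at 0 h, 9.68, 9.66 and 9.56 at 3 h, 10.23, 10.16 and 9.98 at 7 h, 10.01, 10.03 and 10.05 at 14 h, 9.71, 9.67 and 9.77 at 21 h, and 9.62, 9.58 and 9.64 at 30 h. Its rise was complete by 7 h and largely kept, with a log2 change of 1.31 at 3 h (SE 0.0698, limma adjusted p = 3.47e-09), 1.80 at 7 h and 1.29 at 30 h. On the probe sets used, Pfkm was the member with the largest change at 3 h, and the only one past 2-fold at that time. The other bright probe set of Slc2a3, with an _s_at name, was also past 2-fold at 3 h (log2 change 1.24).

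Pfkl had means of 7.89, 8.08, 8.71, 8.76, 8.40 and 7.75 at the 6 times. It was 1.76-fold higher at 7 h and 1.83-fold higher at 14 h (limma adjusted p = 1.84e-06 and 3.68e-07). At 30 h it lay at 7.80, 7.64 and 7.82, against 7.95, 7.82 and 7.91 at 0 h (log2 change -0.14, adjusted p = 0.143), and its probe sets averaged gave -0.15 with an adjusted p of 0.0452. Pfkp had means of 10.71, 10.56, 10.52, 10.62, 10.88 and 11.51, and was called against 0 h at 30 h only. Its 30 h arrays lay at 11.53, 11.44 and 11.54, all above the 0 h arrays at 10.71, 10.74 and 10.69 (log2 change 0.80, SE 0.0742, adjusted p = 7.85e-08). Pfkm thus rose at the start of the course, Pfkl was high in its middle, and Pfkp rose at its end.

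**Figure D2:**
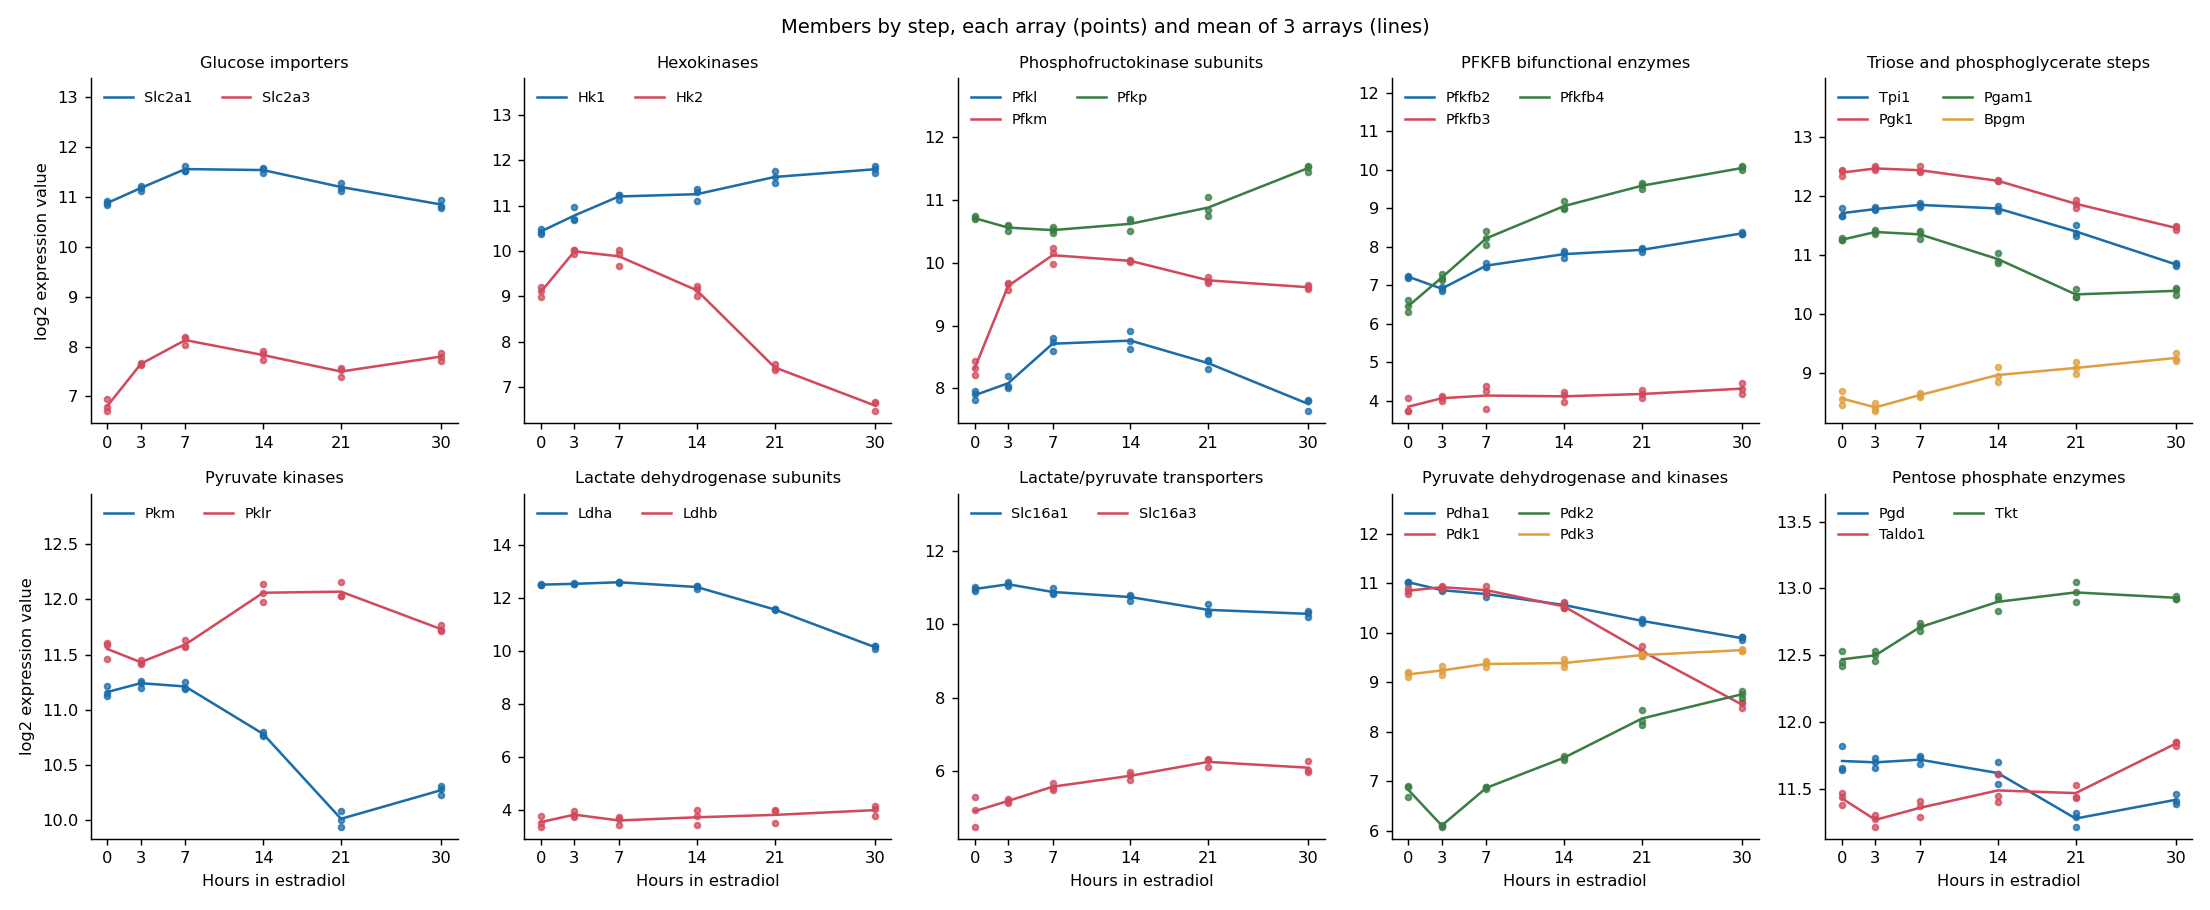
Each panel plots the log2 expression value (y axis) against hours in estradiol (x axis) for the members of a step, with points for arrays and lines for the means of 3 arrays. Heights of different genes are not comparable, since each comes from its own probe set. The points of Hk2, Ldha and Pdk1 at 21 h and 30 h lie below all of their earlier points, while Pfkfb4 and Pdk2 are highest at 30 h.

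The PFKFB enzymes make and break down fructose 2,6-bisphosphate, a strong activator of phosphofructokinase, and all 3 tested genes of the family were higher at 30 h. Pfkfb4 lay at 6.46, 6.30 and 6.61 at 0 h, 7.18, 7.30 and 7.13 at 3 h, 8.40, 8.22 and 8.05 at 7 h, 8.99, 9.02 and 9.18 at 14 h, 9.62, 9.66 and 9.50 at 21 h, and 10.10, 9.99 and 10.08 at 30 h. Arrays of neighbouring times did not overlap at any step, and each of the 5 steps was called. The step between 14 h and 21 h (0.53) lost its call on the hybridisation control scale (0.32, adjusted p = 0.328), and the other steps kept theirs. The change reached 12.1-fold at 30 h (log2 change 3.60, SE 0.0946, limma adjusted p = 1.81e-14), the largest change in size among the 31 members tested.

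Pfkfb2 had means of 7.22, 6.91, 7.51, 7.81, 7.92 and 8.35 at the 6 times. It was lower at 3 h (log2 change -0.31, limma adjusted p = 0.00127) and higher from 7 h on, reaching 1.13 at 30 h (SE 0.0598, adjusted p = 6.90e-11). The 3 h and 7 h calls of Pfkfb2 were lost on the hybridisation control scale (adjusted p = 0.712 and 0.606) and when its probe sets were averaged (adjusted p = 0.433 and 0.863). Pfkfb3 was dim, at 4.30, 4.45 and 4.17 at 30 h, against 3.73, 3.73 and 4.07 at 0 h (log2 change 0.47, adjusted p = 0.0057). That call was lost when its probe sets were averaged (0.14, adjusted p = 0.118).

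Between aldolase and enolase, Tpi1, Pgk1 and Pgam1 fell late, while Bpgm, the enzyme of the red cell side branch, rose. Aldolase A is the main aldolase of red cells and muscle, and its probe sets differed in size of change. Aldoa lay at 12.82, 12.87 and 12.80 at 30 h, against 12.72, 12.73 and 12.72 at 0 h. Its log2 change of 0.11 at 30 h (limma adjusted p = 0.0451) lost its call when any of the 6 arrays was left out (adjusted p 0.0551 to 0.133). Of its other probe sets, those with changes of 0.23 and 0.47 at 30 h were called with every probe set fitted on its own (adjusted p = 0.000945 and 0.007), the last also at every earlier time (0.44 to 0.50), and those with 0.07 and 0.08 were not (adjusted p = 0.406 and 0.165). Aldoc, the brain type, was dim, with means of 4.72 to 5.42, and was not called at 30 h (0.22, SE 0.193, adjusted p = 0.33). Its call at 21 h (-0.48, adjusted p = 0.0415) rested on arrays that overlap those of 0 h, and was lost under quantile normalization (adjusted p = 0.104) and without the 0 h replicates 1 or 2 or the 21 h replicates 2 or 3 (adjusted p 0.0541 to 0.242).

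Tpi1, which interconverts the triose phosphates, lay at 10.86, 10.84 and 10.82 at 30 h, all below the 0 h arrays at 11.67, 11.66 and 11.79. The log2 change was -0.87 (SE 0.0573, limma adjusted p = 1.04e-09), and its other probe sets gave -1.09 and -0.83. Pgk1, which makes the first ATP of the pathway, lay at 11.49, 11.42 and 11.48 at 30 h, against 12.34, 12.43 and 12.44 at 0 h (log2 change -0.94, adjusted p = 1.91e-10). Pgam1, the phosphoglycerate mutase, lay at 10.32, 10.44 and 10.40 at 30 h, against 11.25, 11.28 and 11.25 at 0 h (log2 change -0.87, adjusted p = 1.89e-09). These 3 genes had nearly equal falls at 30 h, between 1.83-fold and 1.91-fold. They differed in timing: Pgam1 had reached -0.93 at 21 h and was not called between 21 h and 30 h, whereas Tpi1 and Pgk1 were at -0.31 and -0.53 at 21 h and fell again by 30 h.

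Bpgm rose, and between neighbouring times it was called only at 14 h against 7 h. Its means were 8.56, 8.41, 8.62, 8.96, 9.08 and 9.25 at the 6 times, and the 30 h arrays at 9.33, 9.19 and 9.23 lay above the 0 h arrays at 8.69, 8.55 and 8.45. At 30 h it was 1.61-fold higher (log2 change 0.69, SE 0.078, limma adjusted p = 8.08e-07), with 0.67 and 0.78 from its other probe sets. Eno3, the muscle enolase, had 8.29, 8.21 and 8.51 at 30 h, against 7.95, 7.98 and 8.15 at 0 h (log2 change 0.31, adjusted p = 0.0566), and was called in 7 of the alternative settings.

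Gapdh was read by the array's control probe sets for its 3′ end, middle and 5′ end. The 3′ probe set lay at 13.14, 13.13 and 13.15 at 30 h, against 13.22, 13.19 and 13.23 at 0 h, and the change of -0.07 was not called (limma adjusted p = 0.122). With every probe set fitted on its own, the middle and 5′ probe sets fell by 0.39 and 0.46 (adjusted p = 2.24e-05 and 0.000744). The gap between the 3′ and 5′ values averaged 1.13, 1.18, 1.22, 1.19, 1.52 and 1.52 at the 6 times, with a range of 1.34 to 1.62 at 30 h and of 1.07 to 1.20 at 0 h. For Actb the gap averaged 2.20 at 30 h, against 1.89 at 0 h. The gap can be a sign of RNA length, but RNA length was not measured. The part of the gap in the changes of other members was not tested.

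Pyruvate kinase, the last ATP-making step, is encoded by Pkm, the form of most tissues, and by Pklr. Pkm lay at 11.21, 11.12 and 11.15 at 0 h, 11.24, 11.26 and 11.20 at 3 h, 11.19, 11.25 and 11.20 at 7 h, 10.76, 10.80 and 10.77 at 14 h, 9.94 to 10.08 at 21 h, and 10.31, 10.23 and 10.28 at 30 h. Pklr lay at 11.60, 11.59 and 11.46 at 0 h, 11.45, 11.42 and 11.41 at 3 h, 11.58, 11.63 and 11.57 at 7 h, 12.14, 11.98 and 12.06 at 14 h, 12.03, 12.03 and 12.16 at 21 h, and 11.72, 11.71 and 11.77 at 30 h. Pklr was thus highest at 14 h and 21 h, while Pkm fell below its earlier arrays at 14 h and was lowest at 21 h. At 21 h Pkm was 2.22-fold lower (log2 change -1.15, SE 0.0507, limma adjusted p = 1.52e-11) and Pklr 1.44-fold higher (0.52, SE 0.0586, adjusted p = 1.05e-06). Both moved back by 30 h, Pkm to -0.89 and Pklr to 0.18 (adjusted p = 0.0125). The 30 h call of Pklr was lost on the hybridisation control scale (0.38, adjusted p = 0.0854) and without the 0 h replicate 3 (0.14, adjusted p = 0.0652), while its other probe sets changed by 0.47 and 0.34.

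Lactate dehydrogenase converts pyruvate to lactate and regenerates NAD+. Ldha, its main subunit in glycolytic cells, lay at 12.48, 12.54 and 12.51 at 0 h, 12.56, 12.54 and 12.52 at 3 h, 12.60, 12.62 and 12.58 at 7 h, 12.36, 12.45 and 12.44 at 14 h, 11.58, 11.59 and 11.54 at 21 h, and 10.19, 10.07 and 10.19 at 30 h. It held within 0.10 of its 0 h mean up to 14 h and then fell below every earlier array at 21 h and again at 30 h. The change was 5.14-fold at 30 h (log2 change -2.36, SE 0.05, limma adjusted p = 1.92e-15), of which -1.42 came between 21 h and 30 h. Ldhb, the heart subunit, was dim, with 4.16, 4.04 and 3.78 at 30 h, against 3.37, 3.49 and 3.77 at 0 h. Its log2 change of 0.45 (adjusted p = 0.0217) lost its call when any of 4 arrays was left out: 0 h replicates 1 and 2 and 30 h replicates 1 and 2 (adjusted p 0.0583 to 0.0913).

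The monocarboxylate transporters that carry lactate and pyruvate across the membrane moved apart. Slc16a1 (MCT1) lay at 10.31, 10.37 and 10.21 at 30 h, against 10.92, 11.02 and 10.97 at 0 h (log2 change -0.68, SE 0.075, limma adjusted p = 6.35e-07). Slc16a3 (MCT4, the exporter of highly glycolytic cells) lay at 5.96, 6.03 and 6.27 at 30 h, against 4.92, 4.47 and 5.28 at 0 h (log2 change 1.19, SE 0.147, adjusted p = 2.19e-06). Slc16a3 was called from 7 h on and Slc16a1 from 14 h on, although the 14 h value of Slc16a1 (-0.22) turned to 0.01 on the hybridisation control scale and with the mean of its probe sets.

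**Figure D3:**
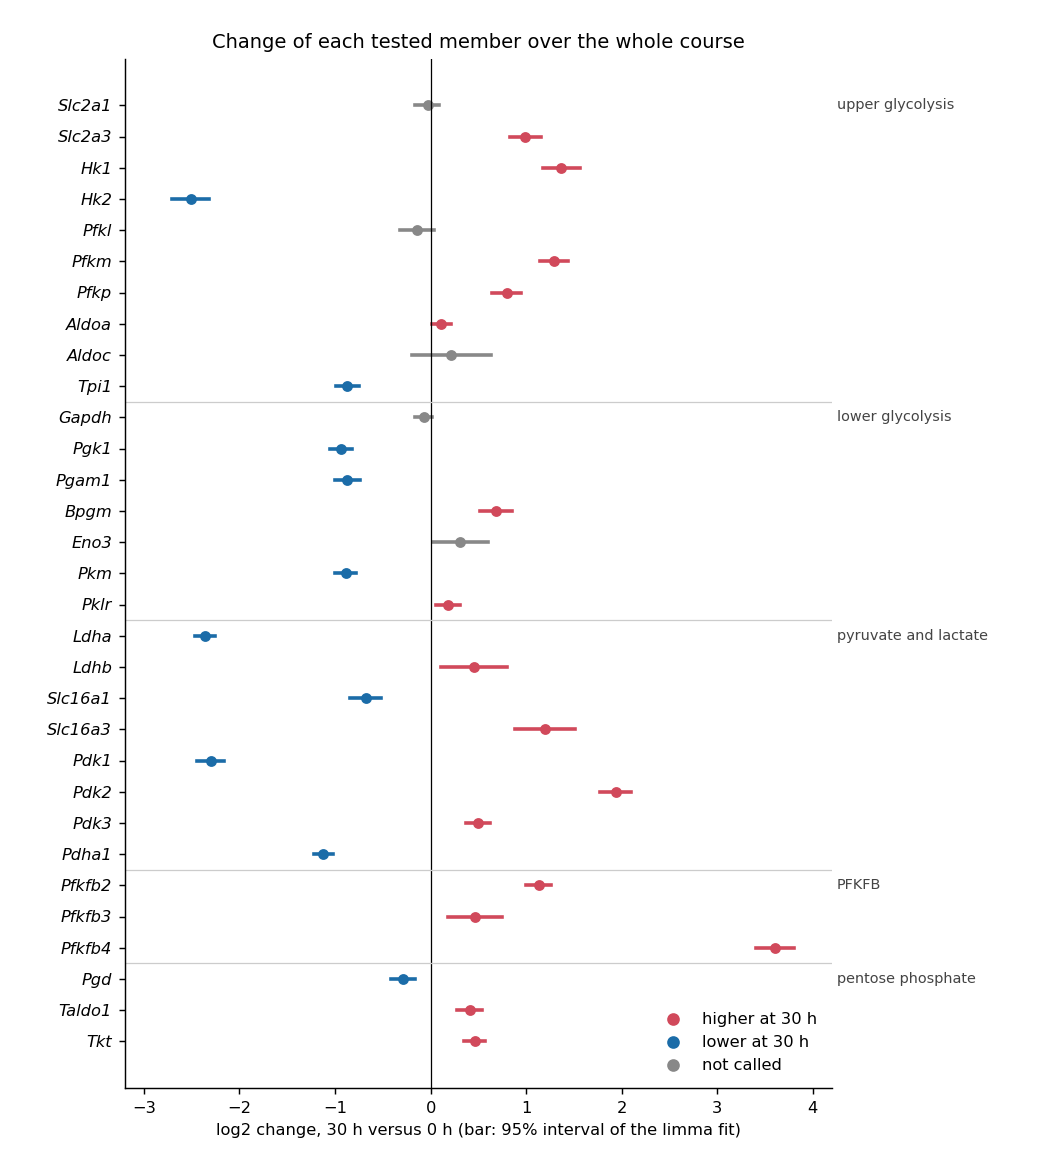
Points give the log2 change at 30 h against 0 h for each of the 31 members tested and bars its 95% interval from the limma fit, ordered by step, with colours for the call. Pfkfb4 (3.60) and Pdk2 (1.94) lie farthest right, and Hk2 (-2.51), Ldha (-2.36) and Pdk1 (-2.30) farthest left.

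Entry of pyruvate into the mitochondrion runs through pyruvate dehydrogenase, whose E1 alpha subunit is encoded by Pdha1 and is switched off by the Pdk kinases. Pdha1 fell steadily and was called at every time against 0 h. Its arrays lay at 9.91, 9.85 and 9.92 at 30 h, against 11.03, 11.00 and 11.02 at 0 h (log2 change -1.12, SE 0.047, limma adjusted p = 4.07e-12). Its calls at 3, 7 and 14 h were lost on the hybridisation control scale (adjusted p = 0.944, 0.513 and 0.379). The 3 h call was also lost without the 0 h replicate 1 (adjusted p = 0.0742), the 3 h replicate 2 (0.0625) or the 3 h replicate 3 (0.0839). Its other probe set changed by -1.41 at 30 h.

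The kinases Pdk1 and Pdk2 moved in opposite directions. Pdk1, a known target of hypoxia-inducible factor, lay at 10.90, 10.79 and 10.85 at 0 h, 10.89, 10.94 and 10.92 at 3 h, 10.84, 10.94 and 10.79 at 7 h, 10.62, 10.49 and 10.49 at 14 h, 9.54, 9.61 and 9.74 at 21 h, and 8.48, 8.60 and 8.58 at 30 h. Pdk2, a widely expressed kinase, lay at 6.88, 6.69 and 6.90 at 0 h, 6.11, 6.09 and 6.13 at 3 h, 6.88, 6.88 and 6.84 at 7 h, 7.44, 7.47 and 7.52 at 14 h, 8.45, 8.13 and 8.22 at 21 h, and 8.77, 8.68 and 8.83 at 30 h. Pdk2 dipped below all 0 h arrays at 3 h, was among them at 7 h and above them from 14 h. At 30 h Pdk1 was 4.92-fold lower (log2 change -2.30, SE 0.0648, limma adjusted p = 4.15e-14) and Pdk2 3.82-fold higher (1.94, SE 0.0757, adjusted p = 1.78e-12). The dip of Pdk2 was -0.71 at 3 h (adjusted p = 4.61e-06). Pdk3 rose less, to 9.63, 9.64 and 9.68 at 30 h, against 9.20, 9.10 and 9.18 at 0 h (0.49, adjusted p = 1.93e-06). The other probe sets of Pdk1 changed by -1.90, -2.46 and -1.95.

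The 3 pentose phosphate enzymes tested split between the branches of the pathway. Pgd, an NADPH-making enzyme of the oxidative branch, lay at 11.39, 11.41 and 11.46 at 30 h, against 11.64, 11.66 and 11.82 at 0 h (log2 change -0.29, limma adjusted p = 0.000424). On the hybridisation control scale that change was -0.08 with an adjusted p of 0.717, whereas a dimmer probe set of Pgd changed by -0.70. Tkt and Taldo1, transketolase and transaldolase of the non-oxidative branch, were higher at 30 h. Tkt lay at 12.94, 12.92 and 12.92 at 30 h, against 12.53, 12.42 and 12.45 at 0 h (0.46, SE 0.0527, adjusted p = 8.90e-07), and its other probe sets changed by 1.32 and 0.64. Taldo1 lay at 11.85, 11.82 and 11.85 at 30 h, against 11.47, 11.38 and 11.44 at 0 h (0.41, adjusted p = 1.78e-05), and 0.37 of this came between 21 h and 30 h.

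To compare isozymes without setting levels of different probe sets against each other, the log2 difference of a pair was taken on each array and its change from 0 h to 30 h was computed. Of 21 pairs, 15 had both genes tested, and in 14 of them the 30 h differences did not overlap those at 0 h. At 30 h against 0 h, 36.6% of all genes were called higher and 33.0% lower, so shifts between genes are common in these data. Those are shares of single genes. The share of all gene pairs without overlap was not computed, so the count of 14 cannot be read as particular to isozymes. An exact two-sided permutation test over 3 against 3 arrays cannot go below p = 0.1. All 14 pairs reached that value (0.107 after adjustment over the 15 pairs), so none passes a threshold of 0.05, and pairs that share a gene are not independent.

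The widest shift was that of Pdk1 minus Pdk2. It ranged from -0.30 to -0.08 at 30 h, against 3.95 to 4.1 at 0 h, a change of -4.23 (SE 0.101). Hk1 minus Hk2 ranged from 5.15 to 5.25 at 30 h, against 1.21 to 1.5 at 0 h, a change of 3.88 (SE 0.132). At 3 h the pairs Hk1 minus Hk2 and Pdk1 minus Pdk2 had moved the other way, by -0.54 and 0.78. The difference Ldha minus Ldhb changed by -2.81 (SE 0.173), Slc16a1 minus Slc16a3 by -1.87 (SE 0.194) and Slc2a1 minus Slc2a3 by -1.02 (SE 0.0939). The last was -0.12 when probe sets with _x_at or _s_at names were left out, which leaves only dim probe sets for Slc2a3. Pkm minus Pklr changed by -1.68 at 21 h and by -1.07 at 30 h (SE 0.0487).

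Among the phosphofructokinase subunits, Pfkl minus Pfkm changed by -1.12 at 3 h and by -1.43 at 30 h (SE 0.0987). Pfkm minus Pfkp stood at 1.99 above its 0 h mean at 7 h and at 0.50 above it at 30 h, or at 0.75 with the mean of probe sets. Pfkfb3 minus Pfkfb4 changed by -3.13 (SE 0.201) and Pfkfb2 minus Pfkfb4 by -2.47 (SE 0.102). The aldolase pair was the exception, with a change of -0.11 (SE 0.229), overlapping arrays and an exact p of 0.6.

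**Figure D4:**
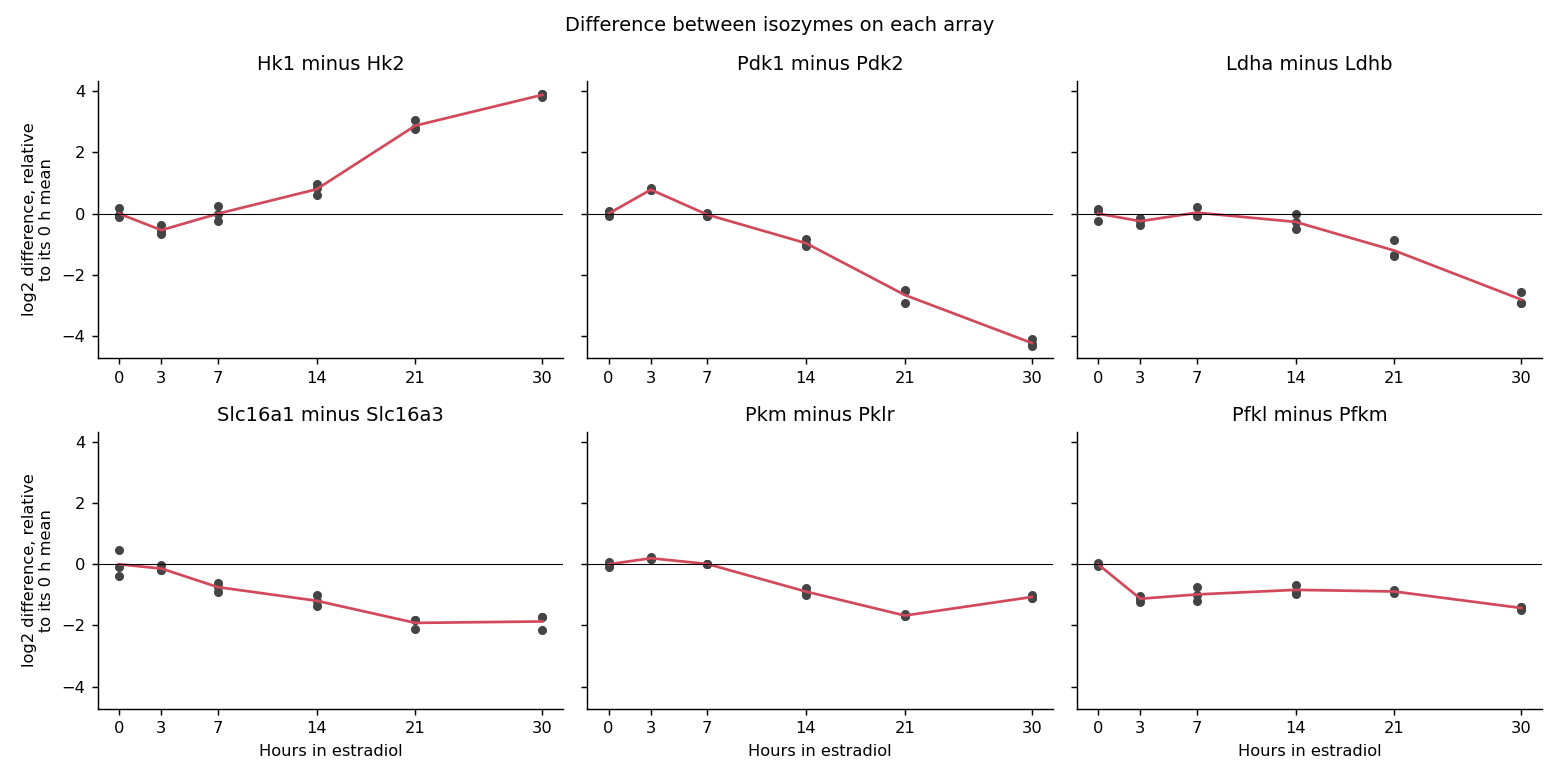
Each panel plots the log2 difference between a pair of isozymes on each array (points) and its mean (line), relative to the 0 h mean, against hours in estradiol. Hk1 minus Hk2 ends at 3.88 and Pdk1 minus Pdk2 at -4.23. Both had moved the other way at 3 h, by -0.54 and 0.78.

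Genes next to these steps, taken from lists chosen with earlier results of these data known, also moved both ways at 30 h. Their counts are to be read against the 36.6% of all genes called higher and the 33.0% called lower at that time. Of 7 tested genes of other NADPH sources, 3 were higher and 4 lower, with a median log2 change of -1.35. The lower ones were Idh2 (-2.37), the malic enzyme Me1 (-2.31), the folate enzyme Mthfd1 (-2.24) and the transhydrogenase Nnt (-1.35), all with limma adjusted p of 1.23e-10 or less. Of 8 other pentose phosphate genes, 3 were higher and 4 lower (median -0.23). Pgls, the lactonase between G6pdx and Pgd, fell by 1.51, and Prps2, which makes the ribose donor for nucleotides, fell by 1.68, while Shpk, the sedoheptulose kinase, rose by 1.78.

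Of 7 tested genes for gluconeogenesis and glycerol 3-phosphate, 0 were higher and 5 lower by limma (median -1.06), with 1 higher on the hybridisation control scale. The fall was 1.77 for Gpd2, the mitochondrial glycerol 3-phosphate dehydrogenase, and 1.48 for Gpd1l. Of 12 glycogen genes, 5 were higher and 6 lower (median -0.27), among them the phosphoglucomutase Pgm1 (-2.61) and the branching enzyme Gbe1 (-1.94). Of 8 other genes of pyruvate entry, 3 were higher and 3 lower (median -0.09). The pyruvate carrier subunit Mpc1 (1.20, adjusted p = 1.21e-11) and pyruvate carboxylase Pcx (1.30, adjusted p = 9.53e-11) were higher, and Dld, the E3 subunit of pyruvate dehydrogenase, was lower (-0.59), a call lost on the hybridisation control scale (adjusted p = 0.0804).

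Other glucose transporters and hexokinases gave 3 higher and 2 lower of 7 (median 0.26), with Slc2a2 (GLUT2) at -2.09 and Slc2a8 (GLUT8) at 1.0. Other genes of lower glycolysis gave 1 higher and 2 lower of 7 (median 0.17), and up to 3 higher in alternative settings. The lower ones included Bsg (-0.84), the chaperone of the Slc16a1 and Slc16a3 transporters. Known hypoxia-inducible factor targets outside glycolysis gave 4 higher and 3 lower of 9 (median 0.23). Bnip3 (1.49) and Kdm3a (1.23) were higher, and Vegfa (-2.71) and Ankrd37 (-1.62) were lower. Among 10 oxygen and glucose sensing regulators, 5 were higher and 3 lower (median 0.14), with Mlxip at 1.07 and Egln1, an oxygen sensor that marks hypoxia-inducible factor for decay, at -0.83. The counts for the regulators changed to 3 higher and 1 lower on the hybridisation control scale.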

How the data were processed

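RNA from 18 samples was read on Affymetrix GeneChip arrays, 1 array per sample. The values deposited by the authors are log2 levels of 45101 probe sets on each array. The base of the logarithm was read from the values, which reach 14.4. How probes were summarised, corrected for background and scaled was not given in the sources used here. Array medians lay between 4.04 and 4.09, so the arrays already share a scale, and the number of arrays limits the precision. Correlations between arrays of a time were 0.995 or more, and 0 pairs were identical.

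Per the platform annotation, 34958 probe sets name 1 gene, 932 several and 9211 none; those naming 1 gene were used, the brightest per gene. Genes entered the tests when 3 or more arrays, of any time, had them over the 40th percentile of that array. All arrays were fitted with limma 3.58.1 (R 4.3.3), with 1 mean per time, 12 residual degrees of freedom, two-sided tests and Benjamini-Hochberg adjustment over 12720 genes in each of 9 comparisons; calls needed an adjusted p under 0.05. Isozyme pairs were tested with scipy 1.17.1. Data were simulated for 12720 genes at 30 h against 0 h, with 200 genes changed. Calls found 36% of genes changed 1.25-fold, 80% of those at 1.5-fold, 96% at 2-fold and 100% at 4-fold. There were 10 calls among unchanged genes. In the measured data 4651 genes were called higher and 4195 lower at 30 h, so these rates may not hold for the calls reported here.

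The members and lists were chosen with earlier results of these data known. The text names every measured member and, from each neighbour list, genes among the 4 called with the largest change at 30 h. Those named were not always the largest. G6pc3 (-1.77), Pdp1 (-0.94) and Pgp (-0.86), among others, were left out of the text. The replicate numbers were checked for pairing (correlations of same-numbered deviations of -0.17 to 0.188) and not used. The alternatives were quantile normalization, scaling on 18 hybridisation control probe sets, other filters, other choices of probe set, other variance models, only the arrays compared, the replicate block and leaving out each array. Those for the neighbour lists were added after seeing the data.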

Additional observations from a re-analysis of the deposited data

How the results depend on the processing

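At 30 h against 0 h, leaving out each array gave 14 to 15 higher and 10 lower members, against 16 and 10 with all arrays, and 14 isozyme pairs without overlap each time. Scaling on hybridisation controls changed these counts of calls: 1 lower at 3 h, 0 at 7 h and 0 at 14 h against 0 h; 1 higher at 7 h against 3 h; 0 lower at 14 h against 7 h; 1 higher at 21 h against 14 h; and 3 lower at 30 h against 21 h. Averaging probe sets gave 1 lower at 3 h and 2 lower at 7 h against 0 h. The 7 h count was also 2 with the 60th-percentile filter, without _x_at and _s_at probe sets, with only the arrays compared and with a trended and robust variance. At 7 h against 3 h, 1 member was lower with the 60th-percentile filter and with a trended and robust variance, and 0 to 1 when arrays were left out. With only the arrays compared, 5 members were lower at 14 h against 7 h.

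The sign turned for Slc16a1 at 14 h against 0 h (0.010 on the hybridisation control scale, 0.005 with the mean of probe sets) and, at 14 h against 7 h on the hybridisation control scale, for Ldha (0.092), Pdha1 (0.050) and Pgk1 (0.097). Pgd at 7 h against 0 h gave -0.225 without _x_at and _s_at probe sets, called, where the value of 0.016 was not. The cause was not tested. With the replicate block, 15 members were higher and 10 lower at 30 h against 0 h, the lost call being that of Aldoa (adjusted p = 0.0599). The block also lost Pfkfb3 at 21 h (adjusted p = 0.0563) and changed no other call of a member. Counts over 12720 genes depend on 3 arrays a time: changes of dim members such as Ldhb, Pfkfb3 and Aldoc lie near the limit of what these arrays resolve.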
